A study of Mus musculus with 6 samples.

Results

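Hdc, Cpa3, Ms4a2, Fcer1a, Mcpt8 and Prg2 are 6 of the 30037 genes named in the deposited expression table, and all 6 were found there by symbol. They share textbook roles in mast cells, basophils and eosinophils, and they were chosen on the values of the same genotype comparison that is described here. Their values are therefore given as a description, without a test. The RNA came from L-GMP, a leukaemic population that resembles granulocyte-monocyte progenitors, sorted from bone marrow of AML (acute myeloid leukaemia) mice aged 8 to 10 weeks. They were wild type in 3 libraries and Prmt6-/- in the other 3. How the leukaemia was started, how many animals were used and whether any were pooled are not given in the labels, so the spread between libraries may be technical. Poly(A) RNA was sequenced, and the read depth is not known, since the file holds normalized values in place of counts.

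Mast cells, basophils and eosinophils are cells with granules that store preformed mediators. Histidine decarboxylase, the product of Hdc, makes histamine from histidine, and in bone marrow Hdc is also expressed by myeloid-biased progenitors and immature myeloid cells. Histamine is loaded into vesicles by the transporter Slc18a2, can cross the plasma membrane through Slc22a3, and is inactivated inside cells by the methyltransferase Hnmt. Mast cells and basophils are triggered when antigen cross-links IgE on the receptor built from Fcer1a, Ms4a2 and Fcer1g.

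The library values are on a log2 scale normalized between libraries by the authors. The file does not name the transformation. The difference of library values was divided by the authors' log2 fold change for genes in which the latter, per the authors' deposited table, was at least 1 in size. The ratio had a median of 0.0355 over 1640 tested genes of low mean, under 5, and of 0.886 over 129 genes whose mean was 10 or more. Differences of low genes on the library scale are thus much smaller than those in the authors' deposited table. As a check of the labels, Prmt6, the deleted arginine methyltransferase gene, measured 7.82, 7.60 and 7.41 in wild-type and 5.42, 5.46 and 5.48 in knockout libraries (log2). Across tested genes, libraries of 1 genotype correlated at 0.99873 to 0.99922 and libraries of different genotypes at 0.99333 to 0.99607. Knockout library 3 stood apart for several genes of different kinds. In it Camp, a granule peptide, was at 9.61 against 8.37 and 8.46 in the other knockout libraries, and Ngp at 10.13 against 8.35 and 8.80. Of the other neutrophil genes, Mpo (15.72 against 13.34 and 14.37) and S100a8 (9.36 against 8.33 and 8.53) were also highest in it. So were S100a9, Mmp8 and Ltf, and by small margins Prtn3 and Fcnb. Cxcr2 (8.43 against 8.91 and 8.60), Lcn2 (9.65 against 9.56 and 9.80) and Elane (17.98 against 18.01 and 18.04) were not. Outside the neutrophil genes, Ikzf2 was at 9.19 against 6.58 and 6.49, and the lymphoid marker Nkg7 at 10.48 against 8.95 and 9.02. Nkg7 (11.39 against 10.68 and 10.46) and Mpo (16.29 against 15.27 and 15.19) were highest in wild-type library 3 too.

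The name of the group was set against markers of the mature cells. The mast cell chymase and tryptase genes Cma1, Mcpt4 and Tpsb2 were listed at 0 in all 6 libraries, as were Cma2, Mcpt1 and Mcpt2. Tpsab1, another tryptase, lay between -1.49 and -1.48, and the mast cell receptor Mrgprb2 at -1.97 in each library. Prss34, a basophil protease, lay between 0.17 and 0.22, and the eosinophil receptor Il5ra was listed at 0 throughout. The eosinophil peroxidase gene Epx stood at 2.63 to 2.75. These absent or low genes were singled out after their values were seen, and other genes of the same lists were measured at higher levels. The eosinophil genes Siglecf and Prg3 had wild-type means of 8.28 and 6.64, the mast cell genes Il1rl1, Adora3 and Hpgds 5.82, 5.31 and 4.90, and the basophil gene Cd200r3 4.38. The markers were thus mixed, and the 6 genes are called by name below rather than by a cell type.

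Of the 6 genes, 5 passed the filter on low values, which asked for 3 or more libraries with a log2 value of 1 or higher, and Fcer1a did not. The groups did not overlap for 3 of those 5, with Hdc and Cpa3 lower and Ms4a2 higher in the knockout, and they overlapped for Mcpt8 and Prg2. Over all 15454 tested genes the groups did not overlap for 47.4%, and nothing is read from the count of members because the same comparison chose them.

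The promoters of Hdc, Cpa3 and Ms4a2 are shown because these are the genes that passed the filter on low values and whose groups did not overlap. They come from RefSeq on GRCm38.p6 and run from 250 bases before the annotated start to 50 bases from it. Capitals mark the words of the GATA transcription factor motif, which are AGATAA and, with the last letter changed, AGATAG, and with the first letter changed TGATAA or likewise TGATAG, searched on both strands, so that TTATCT is AGATAA read from the other strand. The Hdc window is chr2:126618629-126618928, the Cpa3 window chr3:20242132-20242431 and the Ms4a2 window chr19:11623670-11623969, all on the minus strand. The RefSeq start of Hdc lies at 126618678, which is 621 bases inside the GENCODE gene, whose longest extent begins at 126619299, and it coincides with the start of 1 of its 5 GENCODE transcripts. For Cpa3 and Ms4a2 the RefSeq start coincides with the end of the gene in GENCODE from which transcription begins.
Hdc: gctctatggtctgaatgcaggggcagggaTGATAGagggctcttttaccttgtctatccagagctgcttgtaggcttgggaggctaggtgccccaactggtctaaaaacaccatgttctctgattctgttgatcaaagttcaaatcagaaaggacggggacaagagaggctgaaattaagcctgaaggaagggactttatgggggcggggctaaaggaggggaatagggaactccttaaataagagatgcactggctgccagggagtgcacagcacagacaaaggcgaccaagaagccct
Cpa3: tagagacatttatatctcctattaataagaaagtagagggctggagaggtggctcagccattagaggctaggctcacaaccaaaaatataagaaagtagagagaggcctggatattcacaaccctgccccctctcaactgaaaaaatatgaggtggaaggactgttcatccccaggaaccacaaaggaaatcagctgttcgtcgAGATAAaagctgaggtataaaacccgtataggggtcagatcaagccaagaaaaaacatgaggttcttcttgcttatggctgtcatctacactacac
Ms4a2: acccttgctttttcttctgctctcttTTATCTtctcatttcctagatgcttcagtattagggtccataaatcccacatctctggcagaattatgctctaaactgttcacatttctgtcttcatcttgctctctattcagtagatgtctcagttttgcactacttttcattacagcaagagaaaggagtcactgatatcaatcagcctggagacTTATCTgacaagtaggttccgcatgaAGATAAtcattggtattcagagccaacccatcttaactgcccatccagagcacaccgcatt

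GATA words stood in the windows of 4 of the 5 members that have one in that table. Hdc held a single word, TGATAG, which began at position -221 relative to the start. Cpa3 held a single AGATAA that began at -46. Ms4a2 held 3 words, beginning at -224, -37 and -11, and Fcer1a held 1, beginning at -92. None of the words was found in the Mcpt8 window, and Prg2 was not analysed here. Such a word was present in 29.8% of all 32851 windows of this length. A match describes the letters only, and both a gene with lower and a gene with higher values in the knockout held one.

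**Figure D1:**
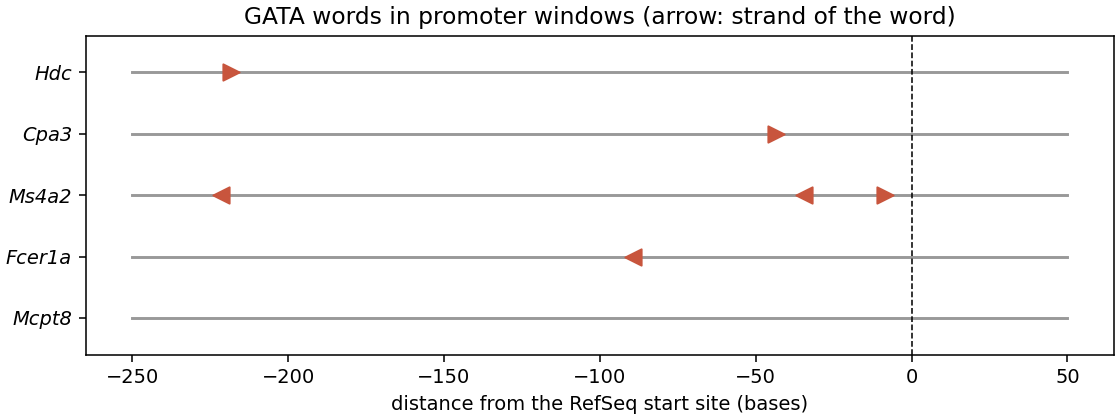
GATA words in the promoter windows of 5 genes, drawn by distance in bases from the RefSeq start site (dashed line). Arrows point right for a word on the gene's strand and left for one on the opposite strand. Ms4a2 holds 3 words and Mcpt8 none.

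Hdc was the member with the widest separation between genotypes. The gene lies on chromosome 2 from 126593667 to 126619299 on the minus strand (GRCm38) and is protein-coding. Hdc measured 9.95, 9.50 and 9.52 in wild-type and 7.69, 8.07 and 8.41 in knockout libraries (log2). Every knockout library lay below every wild-type library, with a gap of 1.09 between the groups. The means were 9.66 ± 0.26 and 8.06 ± 0.36 (SD, n = 3), a difference of -1.60 that equals a 3.03-fold lower level on this scale. The gap exceeded the range within either group, 0.45 for wild type and 0.72 for knockout. Leaving out 1 library at a time, the difference ran from -1.77 without knockout library 3 to -1.41 without knockout library 1. In the authors' deposited table the log2 fold change of Hdc is -2.10, larger than the difference of the library values. In these bulk libraries fewer Hdc-expressing cells and less Hdc RNA per cell cannot be told apart.

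Cpa3, the mast cell carboxypeptidase gene that is also expressed in early mast cell and basophil progenitors, was lower by a smaller margin. It lies on chromosome 3 from 20215620 to 20242181 on the minus strand and spans the microRNA gene Mir7007 on the same strand. Cpa3 measured 9.62, 9.01 and 9.28 in wild-type and 8.86, 8.82 and 8.44 in knockout libraries (log2). The groups were separated by 0.15, less than the wild-type range of 0.62. The means of 9.30 ± 0.31 and 8.71 ± 0.23 (SD, n = 3) differed by -0.60, with -0.81 in the authors' deposited table. Without wild-type library 1 the difference was -0.44, and without wild-type library 2 it was -0.75.

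Hdc and Cpa3 did not keep step across the knockout libraries. Hdc minus Cpa3 on the log2 scale was 0.33, 0.49 and 0.24 in wild-type libraries and -1.16, -0.75 and -0.03 in knockout libraries. Knockout library 3 held the highest Hdc and the lowest Cpa3 value of its group. It was also the library with the highest Camp and Ngp values, and the part of those differences in the Hdc and Cpa3 values was not tested.

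The members among the IgE receptor genes, Ms4a2 and Fcer1a, were low. Ms4a2, which encodes the beta chain of the receptor, lies on chromosome 19 from 11615523 to 11623719 on the minus strand. Ms4a2 measured 3.87, 3.82 and 3.88 in wild-type and 4.06, 3.94 and 4.08 in knockout libraries (log2), so that all knockout libraries were higher, by a mean of 0.17. The authors' deposited table gives Ms4a2 a log2 fold change of 1.88. Fcer1a, which encodes the IgE-binding alpha chain, lies on chromosome 1 from 173221284 to 173227214 on the minus strand. Fcer1a measured -1.49, -1.48 and -1.48 in wild-type libraries and -1.49 in each knockout library (log2). These are among the low values of a table whose lowest value is -1.97, and the library values differed by -0.0053, whereas the authors' deposited table gives Fcer1a a log2 fold change of -1.94. The sign is opposite to that of Ms4a2, but the Fcer1a groups were only 2.03e-05 apart. Fcer1a did not pass the filter on low values, and no direction is read for it.

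The basophil and eosinophil granule members varied as much within a genotype as between genotypes. Mcpt8, a protease used to mark mouse basophils, lies on chromosome 14 from 56082166 to 56085273 on the minus strand and spans the microRNA gene Mir6949 on the same strand. Mcpt8 measured 7.20, 7.06 and 7.50 in wild-type and 7.001, 7.06 and 7.35 in knockout libraries (log2), and the difference of -0.12 was 0.0048 without wild-type library 3. Prg2 encodes the eosinophil major basic protein and lies on chromosome 2 from 84980461 to 84983632 on the plus strand. Prg2 measured 8.15, 7.51 and 7.90 in wild-type and 7.59, 7.23 and 8.15 in knockout libraries (log2), a difference of -0.20 against SDs of 0.32 and 0.47. That difference ran from -0.45 without knockout library 3 to 0.017 without knockout library 2. Knockout library 3 again held the highest value of its group for both genes.

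**Figure D2:**
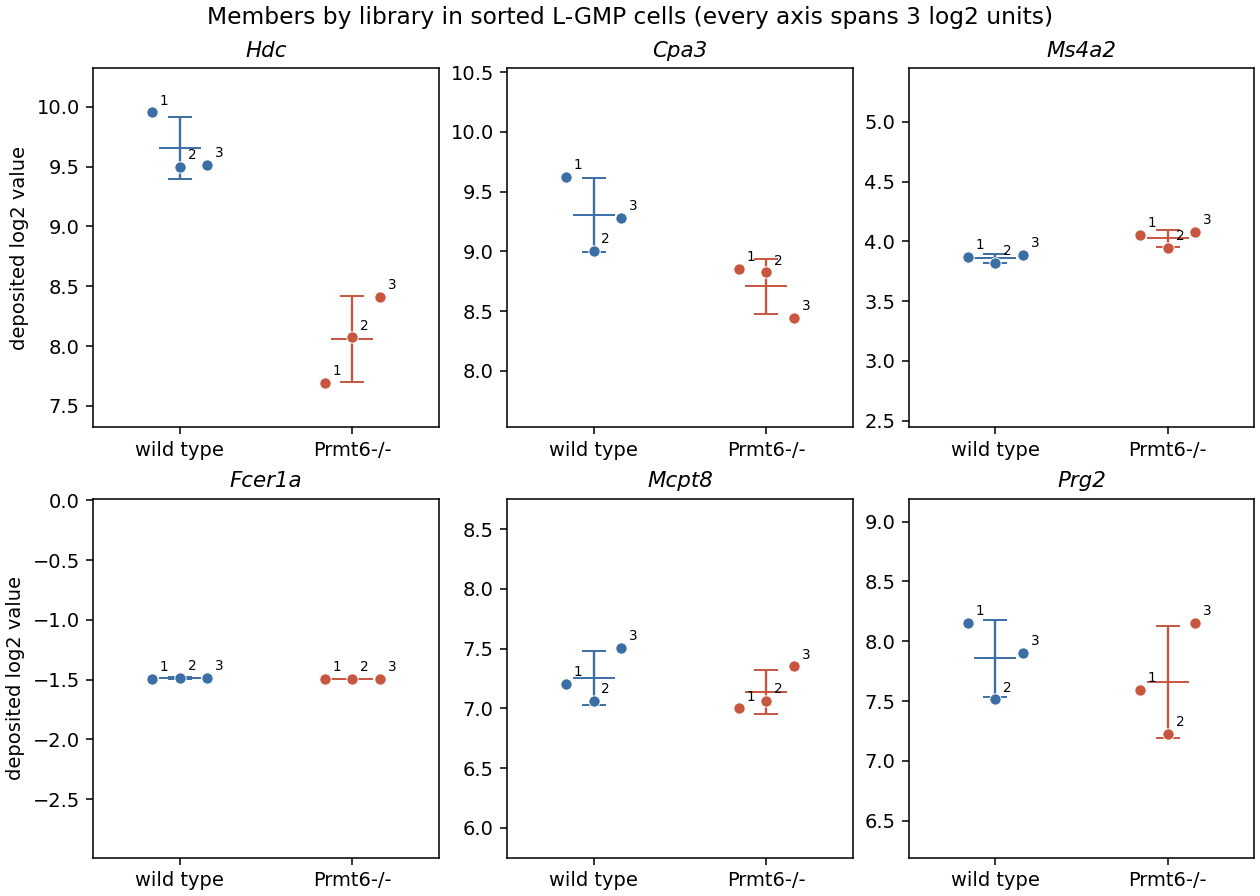
Deposited log2 values of the 6 genes in each library, with the library number beside each point and the mean ± SD (n = 3) as bars. Each vertical axis spans 3 log2 units. The groups are separate for Hdc and Cpa3, close together for Ms4a2 and Fcer1a, and overlapping for Mcpt8 and Prg2.

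Levels of different genes were set side by side per kilobase of annotated exon (log2 value minus log2 of the exonic length in kilobases). The length joins the exons of all annotated transcripts of a gene. It was 6389 bases for Hdc, against 1517 for Cpa3, 998 for Mcpt8 and 838 for Prg2. Which transcripts were present is not known, and a shorter Hdc transcript would place Hdc higher against the other genes. With these lengths the order of the group means was Cpa3, Prg2, Mcpt8, Hdc, Ms4a2 and Fcer1a in both genotypes. In the wild type Cpa3 ranged from 8.41 to 9.02 and Prg2 from 7.77 to 8.41, and these neighbours touched. Mcpt8, at 7.06 to 7.51, overlapped with Hdc at 6.82 to 7.28. In the knockout Mcpt8, at 7.004 to 7.35, no longer overlapped with Hdc at 5.02 to 5.74, whereas Cpa3 (7.84 to 8.26) lay within the range of Prg2 (7.48 to 8.41). Ms4a2 was far below these genes in both genotypes, with group means of 2.36 and 2.53.

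The profile of Hdc was set against those of 5 genes with the highest Pearson correlation over the 6 libraries, among abundant genes that differed by at least 1. They were Themis2 (r = 0.997), a signalling adaptor, the lysosomal phospholipase Pla2g15 (0.997), the transcription factor Tcf4 (0.996), the myeloid membrane protein Mcemp1 (0.996) and the nuclear body protein Sp100 (0.996). All 5 were lower in the knockout, with log2 differences of -1.28 to -1.05 beside -1.60 for Hdc. The choice of genes fixes this likeness, which rests on 6 points in 2 genotypes.

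Genes around the members were taken from 7 lists of histamine handling and of mast cell, basophil and eosinophil biology, with the members left out. They were tested in a limma fit over all 15454 tested genes, in which 33.0% were called at an adjusted p under 0.05, 15.0% higher and 18.0% lower in the knockout. The balance turned when values were quantile-normalized, with 2827 genes called higher and 2378 lower against 2324 and 2778. Of the 104 listed genes 73 were tested and 31 were called, 11 higher and 20 lower, which is 42.5% of those tested. The median difference of the tested list genes was -0.039, against 0.0056 over all tested genes. Of the listed genes, 12 were at 0 in all 6 libraries.

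Of the histamine handling genes, Hnmt fell and Slc22a3 and Slc18a2 rose. Of 12 listed genes 6 were tested, 2 rose and 1 fell, with a list median of 0.025. Hnmt, the histamine methyltransferase, measured 7.07, 7.12 and 7.40 in wild-type and 6.17, 6.22 and 6.51 in knockout libraries (log2). It fell by 0.89 (SE 0.114, limma adjusted p = 0.000444), and the groups did not overlap. Slc22a3, an organic cation transporter that accepts histamine, measured 7.97, 7.89 and 7.59 in wild-type and 10.13, 9.90 and 9.79 in knockout libraries (log2). It rose by 2.12 (SE 0.115, limma adjusted p = 9.96e-06), with every knockout library above every wild-type library.

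Slc18a2, the vesicular monoamine transporter, rose by less and with overlapping groups. Slc18a2 measured 7.98, 8.23 and 8.04 in wild-type and 8.22, 8.62 and 8.69 in knockout libraries (log2), and differed by 0.43 (SE 0.124, limma adjusted p = 0.0269). It was no longer called when wild-type library 1 (adjusted p = 0.0910) or 3 (0.0695) was left out, without knockout library 2 (0.0981) or 3 (0.0907) and in limma without a trend (0.0550). The histamine receptor gene Hrh1, at 3.00 and 3.04, and the monoamine oxidase gene Maoa, at 4.07 and 4.06, were low in both genotypes and were not called (limma adjusted p = 0.509 and 0.876). The receptor Hrh4 was listed at 0 in every library.

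**Figure D3:**
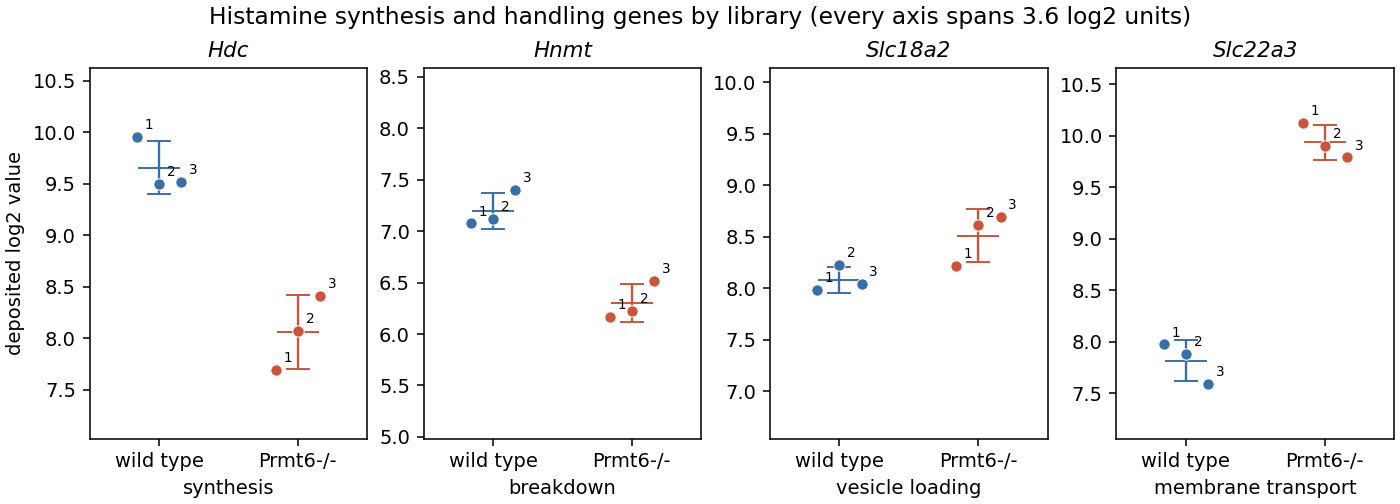
Deposited log2 values of Hdc, Hnmt, Slc18a2 and Slc22a3 by library, with library numbers and mean ± SD (n = 3). All vertical axes span the same number of log2 units. Hdc and Hnmt lie lower and Slc22a3 higher in every knockout library, while the Slc18a2 groups overlap.

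Mast cell protease and granule genes were mostly at 0 or under the filter on low values. Of 14 genes 6 were at 0 in all libraries, 4 were tested, 1 rose and 0 fell, with a list median of 0.0052. Cathepsin G (Ctsg), a protease shared with neutrophil granules, rose from 14.84 ± 0.23 to 15.35 ± 0.05 (SD, n = 3; limma adjusted p = 0.00386). The granule proteoglycan Srgn, at 14.20 and 14.12, and the protease inhibitor Serpinb1a, at 11.44 and 11.50, were not called. Among the neutrophil markers 4 of 12 rose and 2 fell in the same libraries, and their summed log2 level was 17.1 to 17.7 in wild-type and 18.2 to 18.4 in knockout libraries. That sum mostly follows Elane, the neutrophil elastase gene, which lay at 16.4 to 16.7 in wild-type and 18.0 in knockout libraries. The median difference of the 12 markers was 0.11, and Lcn2 fell by 1.09 (limma adjusted p = 2.8e-05), while Mpo differed by -1.11 and was not called (adjusted p = 0.139). None of these neutrophil markers was at 0 in all libraries. Their part in the Ctsg result was not tested.

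Of 14 mast cell surface and regulator genes 10 were tested, 3 rose and 0 fell, with a list median of 0.026. Mitf, a transcription factor required for mast cells, measured 5.79, 5.77 and 5.90 in wild-type and 6.11, 6.05 and 6.25 in knockout libraries (log2) (difference 0.32, SE 0.0721, limma adjusted p = 0.00928). Gata2, a transcription factor of mast cell, basophil and stem cell programmes, rose from 9.96 ± 0.18 to 10.29 ± 0.17 with overlapping groups (SD, n = 3; limma adjusted p = 0.0441). Gata2 was no longer called when wild-type library 2 (adjusted p = 0.133) or 3 (0.126) was left out and without knockout library 1 (0.111) or 2 (0.153). Slc45a3, at 2.85 and 2.93, rose by 0.083 (limma adjusted p = 0.0374), a call that ended without wild-type library 2 (0.112) or 3 (0.0946) and without any knockout library (0.107, 0.0553 and 0.0627). It is not called in the authors' deposited table (adjusted p = 0.120). The list held 1 call without wild-type library 3, without knockout library 1 or without knockout library 2.

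Kit, the stem cell factor receptor of mast cells and progenitors, was not called, at log2 values of 10.22, 9.90 and 10.30 in wild-type and 9.66, 10.03 and 9.87 in knockout libraries. Its difference of -0.29 had a 95% interval of -0.56 to -0.018 and a limma adjusted p of 0.0961. Kit was called without wild-type library 2 (adjusted p = 0.0266) and is past the threshold in the authors' deposited table (0.0481). The granule membrane protein Cd63, at 13.49 and 13.59, was not called (limma adjusted p = 0.152) except after quantile normalization (0.00272).

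Of the basophil genes, Csf2rb and Csf2rb2 fell and Cyp11a1 and Ccr3 rose. Of 14 genes 11 were tested, 2 rose and 2 fell, with a list median of -0.012. Csf2rb, the common beta chain of the IL-3, IL-5 and GM-CSF receptors, measured 12.33, 12.37 and 12.26 in wild-type and 11.66, 11.63 and 11.65 in knockout libraries (log2), and it fell by 0.67 (SE 0.0481, limma adjusted p = 2.81e-05). Csf2rb2, the IL-3-specific beta chain of mice and a close paralog with which reads could be shared, fell by 0.28 (limma adjusted p = 0.0145), a call that ended without knockout library 2 (0.0581) or 3 (0.0501). The alpha chain Il3ra, at 9.44 ± 0.04 and 9.28 ± 0.08 (SD, n = 3), was not called (limma adjusted p = 0.0742), except in limma without a trend (0.0465). Il18rap, a subunit of the IL-18 receptor, was at 8.48 ± 0.16 and 8.70 ± 0.13 (SD, n = 3) with overlapping groups and was not called (limma adjusted p = 0.121).

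Cyp11a1, a steroid-synthesis enzyme also found in mast cells and basophils, rose from 5.66 ± 0.01 to 6.01 ± 0.09 (SD, n = 3; limma adjusted p = 0.00331). The activation marker Cd69, at 11.09 and 10.82, was not called (limma adjusted p = 0.163), except without knockout library 2 (0.0488). Ccr3, the eotaxin receptor of eosinophils and basophils, rose by 0.087 from a low level of 2.44 (limma adjusted p = 0.0204). That call ended without wild-type library 1 (0.0586) or 2 (0.0711), without knockout library 2 (0.0691) and in limma without a trend (0.0863).

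Of 14 eosinophil genes 7 were tested, 1 rose and 2 fell, with a list median of -0.0076. The rise is that of Ccr3, which stands on both lists. Siglecf, an inhibitory sialic acid receptor of mouse eosinophils and alveolar macrophages, measured 8.50, 8.28 and 8.06 in wild-type and 6.65, 6.73 and 7.26 in knockout libraries (log2). It fell by 1.40 (SE 0.164, limma adjusted p = 0.000282), and the groups did not overlap. Adgre1, the F4/80 antigen gene, listed under its older symbol Emr1, fell by 0.33 (limma adjusted p = 0.0122), or by 0.25 without a call after quantile normalization (adjusted p = 0.0511). Prg3, the homologue of Prg2, was at 6.64 ± 0.15 and 6.63 ± 0.18 (SD, n = 3) and was not called (limma adjusted p = 0.964, 95% interval of the difference -0.25 to 0.23). Epx was not called either (adjusted p = 0.175).

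Signalling genes downstream of the IgE receptor, which other immune receptors of myeloid cells also use, were mostly lower where they were called. All 18 were tested, 7 fell and 1 rose, with a list median of -0.16. Lcp2, the adaptor SLP-76, measured 13.32, 13.38 and 13.38 in wild-type and 11.99, 12.42 and 12.43 in knockout libraries (log2), and it fell by 1.08 (SE 0.107, limma adjusted p = 0.000120). The phosphatase Ptpn6 fell by 1.03 (limma adjusted p = 2.72e-05), from a wild-type range of 13.38 to 13.49 to a knockout range of 12.28 to 12.56.

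Fcer1g, the gamma chain shared by the IgE receptor and other Fc receptors, measured 12.89, 12.84 and 12.74 in wild-type and 12.24, 12.22 and 12.27 in knockout libraries (log2). It fell by 0.58 (SE 0.0509, limma adjusted p = 6.93e-05), whereas Ms4a2 was slightly higher and Fcer1a lay near -1.49 in both genotypes. The kinase Syk fell by 0.56, the exchange factor Vav1 by 0.49 and the phospholipase Plcg2 by 0.26 (limma adjusted p = 0.000413, 0.000322 and 0.00499). The kinase Lyn differed by -0.17 (adjusted p = 0.0585) and was called without wild-type library 1 (0.0153). The kinase Btk differed by 0.16 (adjusted p = 0.0536) and was called without knockout library 3 (0.0314) and after quantile normalization (0.0103). In the same libraries 6 of 10 monocyte and macrophage markers fell and 1 rose. Their median difference was -0.52, with Csf1r at -1.83 and Ccr2, the gene that rose, at 1.07. Their summed log2 level was 15.1 to 15.2 in wild-type libraries and 14.9 in each knockout library. The largest term of that sum, Ly6c2, had means of 14.46 and 14.48 and was not called, so the sum did not fall with it. None of these markers was at 0, and their part in the signalling result was not tested. Among lymphoid markers 8 were tested, 1 rose and 3 fell, and among erythroid and megakaryocyte markers 8 were tested, 1 rose and 0 fell.

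Transcription factors of these lineages were called in both directions. Of 21 genes 20 were tested, 8 fell and 4 rose, with a list median of -0.048. Gata2 and Mitf stand on this list too and are counted again among the rises. Gata1, the factor of eosinophil, mast cell and erythroid fates, was low at 2.07 to 2.11 in all libraries. Spi1 (PU.1) fell by 1.02, the GATA cofactor Lmo2 by 1.05, the bHLH factor Lyl1 by 0.53 and Stat5a, which transmits IL-3 and IL-5 signals, by 0.52 (limma adjusted p = 4.31e-05, 3.58e-05, 0.00307 and 0.000556). Ikzf2, an Ikaros family zinc finger factor, measured 11.42, 11.46 and 11.48 in wild-type and 6.58, 6.49 and 9.19 in knockout libraries (log2). It fell by 4.04 (limma adjusted p = 0.000983) and by 4.92 without knockout library 3. Xbp1, a secretory-pathway factor needed by eosinophils, rose by 0.41 (limma adjusted p = 6.79e-05). Cebpe, a factor of granule genes, differed by -0.22 (adjusted p = 0.164) and was called without knockout library 3 (0.0120). Nfil3, at 11.11 and 11.25, was not called (adjusted p = 0.119), except after quantile normalization (0.0141).

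**Figure D4:**
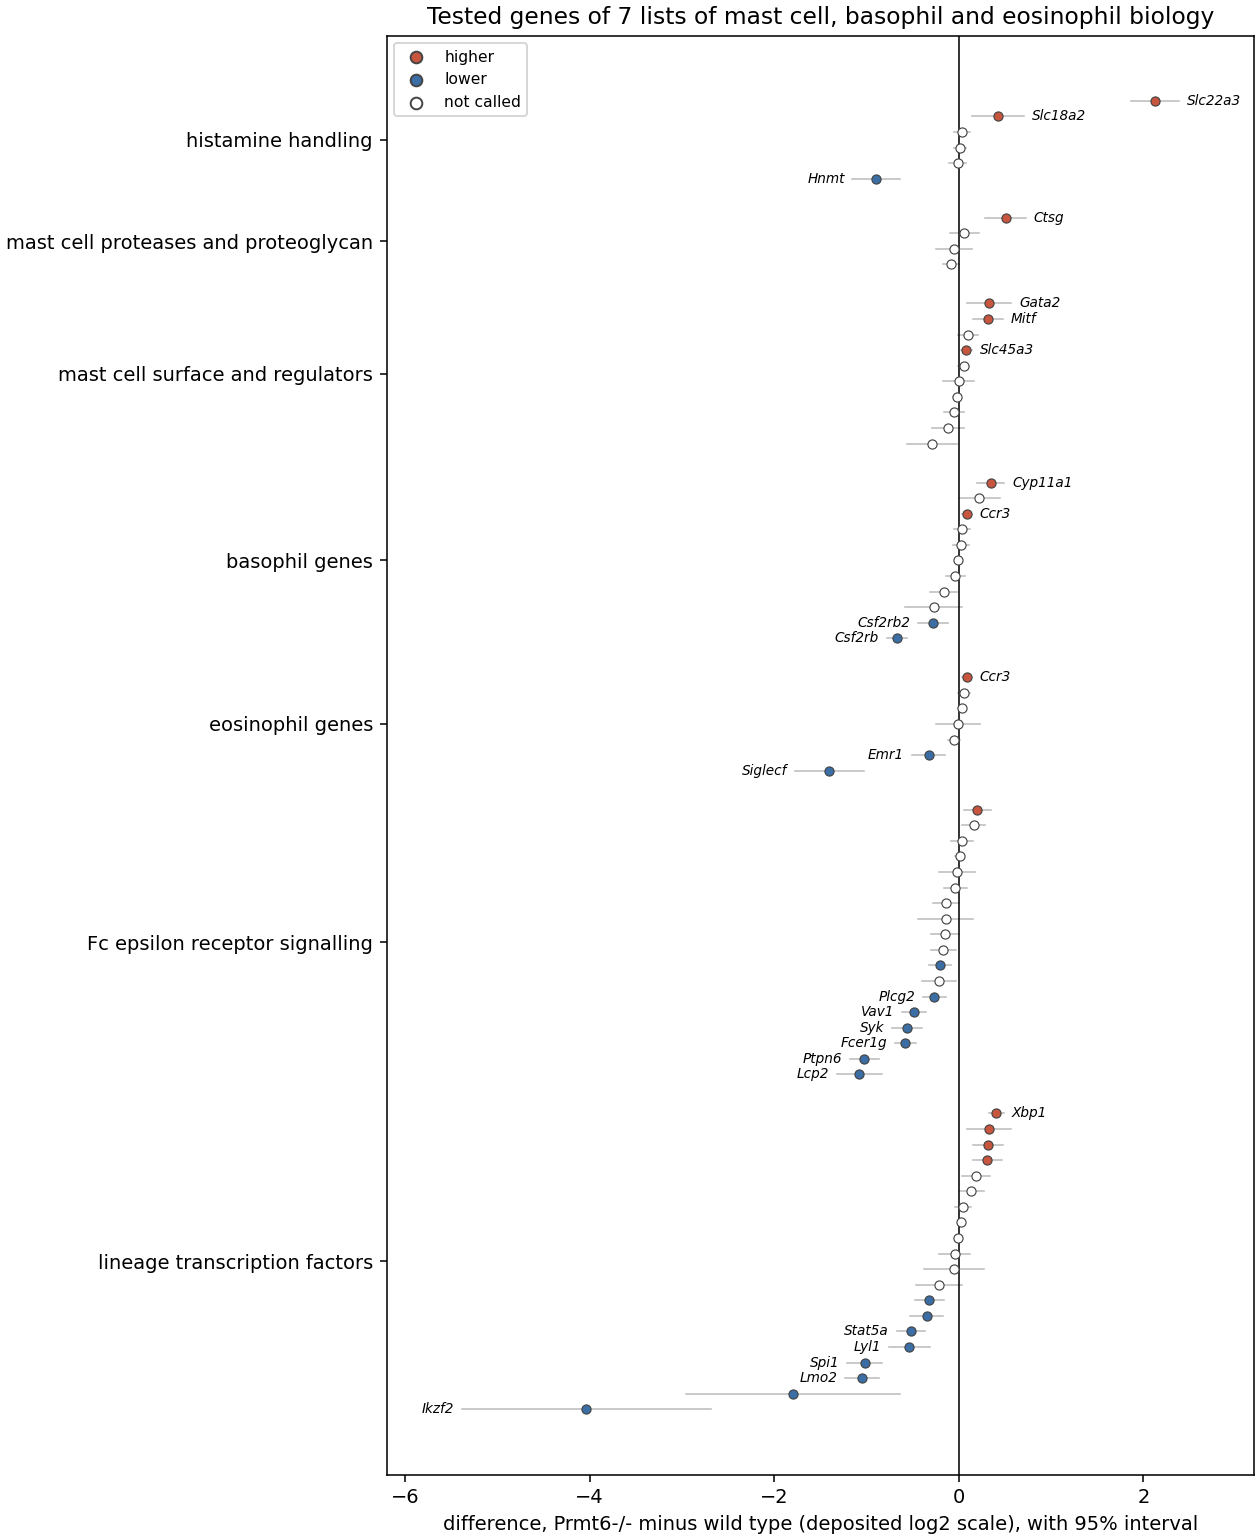
Differences of the tested genes of 7 lists, in log2 units of the deposited values, knockout minus wild type, with 95% intervals from limma. Red points are called higher, blue points lower and white points not called. Slc22a3 stands at 2.12 and Siglecf at -1.40, while Ikzf2, at -4.04, and Cebpb lie further below 0 than Siglecf. Most tested mast cell, basophil and eosinophil genes lie near 0 on this scale. Differences of low genes are much smaller on it than in the authors' deposited table. A place near 0 is therefore not read as no change for low genes.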

How the data were processed

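Poly(A) RNA of 6 libraries, 3 per genotype, was analysed. Trim Galore, kallisto, HOMER and the genome build GRCm38 appear, with no version of a tool, in the submitters' processing notes. Per the file header, the HOMER command for differential expression was run on a count table. The deposited log2 values were normalized between libraries by the authors. The table also holds the authors' log2 fold changes, p-values and adjusted p-values from a test the file does not name. The 1 row that names no gene (0.00333% of rows) was left out.

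The comparison of genotypes used limma 3.58.1 in R 4.3.3 with its mean-variance trend and a two-sided test (adjusted p under 0.05 by Benjamini-Hochberg over the 15454 genes that reached 1 in 3 or more libraries). The procedure was tested on simulated data. The pseudocount of 1 foreseen for linear values was not applied to values already on a log2 scale. Positions and exonic lengths came from GENCODE M21 (GRCm38). The members and the lists were chosen with earlier results of these data known. Named were the members, up to 6 called genes per list by smallest p and up to 2 uncalled genes with the highest mean. Other named list and marker genes were chosen after their values were seen. They were Gata1, Il18rap, Hrh4, Cebpb, the neutrophil, monocyte and lymphoid markers and the marker genes set against the group name. Alternatives were a replicate block, other filters, no trend, quantile normalization, median centring, the authors' deposited test and leaving out each library.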

Additional observations from a re-analysis of the deposited data

How the results depend on the processing

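Over 39 named list genes and their alternatives, 452 of 502 comparisons kept direction and side of the threshold, 27 lost the call and 16 gained it; the report gives those losses and gains that came from leaving out a library. In the other 7 the sign of a difference near 0 that was called in neither fit turned: Maoa to 0.021 without wild-type library 3 (range -0.026 to 0.021 when a library was left out), Serpinb1a to -0.016 without wild-type library 2 (range -0.016 to 0.117), Srgn to 0.062 after quantile normalization, and Prg3 to 0.0063 after quantile normalization, 0.00052 after median centring, 0.064 without wild-type library 1 and 0.084 without knockout library 2 (range -0.090 to 0.084). The count of called list genes was 31 with all libraries and 24 to 28 without 1 of them, and that over all genes 5102 and 3891 to 4598. The list of mast cell surface and regulator genes held 3 calls, and 1 without the filter on low values or in limma without a trend. It held 1 to 3 when a library was left out. The labels do not say that the replicate numbers pair the libraries. Deviations of same-numbered libraries correlated at 0.095, 0.073 and 0.17, each the best match of both libraries. That is a hint of pairing from the data and not from the design. With a replicate block 5074 genes and 31 list genes were called. The member differences were recomputed under the alternatives other than the block, Fcer1a without the 2 normalizations. Outside the authors' deposited table they moved by less than the pooled SD within genotypes, with the changes of sign of Mcpt8 and Prg2 given above. Low genes such as Fcer1a, Ms4a2, Ccr3 and Slc45a3 are limited by a scale on which their differences are small, and the read depth behind them is unknown.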
